A study of Homo sapiens with 2 samples.

Results

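EPZ015666, GSK591 and MS023 were 3 arginine methyltransferase inhibitors among the 74 compounds and solvents, DMSO not counted, of a screen in K562 cells. EPZ015666 and GSK591 inhibit PRMT5, and MS023 inhibits the type I enzymes. They were chosen by their names in the deposited well annotation and grouped by target, with earlier results of these data known. Each compound had 2 wells, so that the class held 6 of the 192 wells.

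K562 is an established human chronic myeloid leukaemia line with erythroid features. All groups were K562 cells kept in 96-well plates with their compound for 6 h, and RNA was read by MAC-seq, in which each well's messenger RNA is barcoded at reverse transcription and its 3′ ends are counted. The groups were the PRMT5 inhibitors (4 wells), MS023 (2 wells), 12 wells of 6 other treatments that served as a common reference, and 24 wells of the solvent DMSO. The reference treatments were the solvent EtOH, the antibiotic Ofloxacin, the DOT1L inhibitors Pinometostat and SGC_0946, the EED inhibitor EED226 and the EZH2 inhibitor GSK126, with 2 wells each. No dose is given in the sources used here, so the 3 compounds were compared at the same time but not at doses known to match. The 2 wells of a compound were technical duplicates on 2 plates of the same layout, at the same position and with the same barcode. Agreement between them therefore does not separate a compound from its position. The p-values and intervals measure the spread between wells of 1 experiment, with duplicates counted as separate wells.

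Protein arginine methyltransferases move methyl groups from S-adenosylmethionine to arginines. PRMT5, which works in a complex with WDR77, makes symmetric dimethylarginine on the Sm proteins of the spliceosome and on histones. The type I enzymes, with PRMT1 as the most active, make asymmetric dimethylarginine on many RNA-binding proteins. Inhibition of either class is known for effects on splicing, which counts of 3′ ends do not read.

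The 6 inhibitor wells held 723310 to 1146568 human counts, the 12 reference wells 462597 to 1238536 and the 24 DMSO wells 173553 to 1030814. The summed level of 11 K562-like marker genes was 27983 to 29645 CPM (counts scaled to library size) in inhibitor wells, 27925 to 29716 CPM in reference wells and 23048 to 28557 CPM in DMSO wells. Of 11 measurable marker genes of other blood cells, 5 were at 0 in all inhibitor wells, 6 in all reference wells and 4 in all DMSO wells. Their summed level was 68.0 to 101 CPM in inhibitor wells, 83.6 to 122 CPM in reference wells and 64.8 to 112 CPM in DMSO wells. Human counts per count of the ERCC RNAs, synthetic transcripts added to each well, were 6.50 and 5.81 for EPZ015666, 6.10 and 4.96 for GSK591 and 3.46 and 6.06 for MS023. The reference wells had a median of 5.90 (range 4.38 to 7.42), so that the MS023 well of plate 1 alone among the 6 lay below all of them. DMSO wells spanned 2.95 to 7.03. Fewer cells and less RNA per cell cannot be told apart in such a ratio.

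Against the reference, no messenger RNA passed the test for any of the 3 compounds. Of 9281 genes tested with edgeR's quasi-likelihood test, at an adjusted p threshold of 0.05, 0 (0%) were called for the PRMT5 inhibitors together and 0 (0%) for MS023. Singly, 0 (0%) were called for EPZ015666 and 0 (0%) for GSK591. An unadjusted p under 0.05 was found for 380 genes (4.09%) with the PRMT5 inhibitors, 323 (3.48%) with EPZ015666, 293 (3.16%) with GSK591 and 454 (4.89%) with MS023, where 5% would be allowed with no change. The Wald test of DESeq2 likewise called 0 genes in each of these comparisons.

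How small a change the wells could have shown depended on the level of the gene. The median half-width of the 95% interval of a log2 fold change was 0.41 for the PRMT5 inhibitors, 0.53 for EPZ015666, 0.53 for GSK591 and 0.55 for MS023. For the PRMT5 inhibitors, 8122 genes (87.5%) had an interval that lay wholly within a 2-fold change in either direction, and for MS023 6566 genes (70.7%) did. Among the 2367 genes whose mean log2 CPM reached 6, which is 64 CPM, the numbers were 2360 (99.7%) and 2363 (99.8%). Over all genes tested, intervals within 1.5-fold were found for 5020 (54.1%) with the PRMT5 inhibitors and 3239 (34.9%) with MS023. The fit counted the 2 wells of a position as separate, so these intervals can be too narrow where levels differ between positions.

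The targeted enzymes themselves lay inside or near the range of the reference wells. PRMT1, the main type I enzyme, had 292 and 346 CPM in the MS023 wells (plates 1 and 2), 333 and 292 CPM with EPZ015666 and 337 and 302 CPM with GSK591, against 286 to 347 CPM (median 326) in reference wells. All 6 wells lay inside the reference range, and the log2 fold change was -0.01 for MS023 (95% interval -0.22 to 0.20) and -0.03 for the PRMT5 inhibitors (-0.19 to 0.13). PRMT5 had 131 and 149 CPM with EPZ015666, 91.8 and 171 CPM with GSK591 and 167 and 135 CPM with MS023, against 102 to 179 CPM (median 122) in reference wells. The GSK591 well of plate 1 was below every reference well and its duplicate was near the top of the reference range. The log2 fold change of PRMT5 was 0.07 for its inhibitors (-0.14 to 0.28) and 0.22 for MS023 (-0.06 to 0.50).

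The other measured members were scarcer and less precise. CARM1, a type I enzyme that acts as a transcription coactivator, had 10.35 and 23.2 CPM with EPZ015666, 16.0 and 24.4 CPM with GSK591 and 11.3 and 18.1 CPM with MS023, against 12.4 to 33.25 CPM in reference wells. The plate 1 wells of EPZ015666 and MS023 were below the lowest reference well, while the other 4 wells were inside the range. PRMT6, a type I enzyme of the nucleus, had 24.1 and 13.1 CPM with MS023 and 15.0 to 15.9 CPM in the 4 PRMT5 inhibitor wells, against 7.55 to 20.1 CPM in reference wells. PRMT7, which makes monomethylarginine, and PRMT2 and PRMT3 lay inside the reference range in all 6 wells. Of the 9 family members listed, 7 were tested and 0 passed in any comparison with the reference. Their median log2 fold change was -0.03 with the PRMT5 inhibitors and -0.01 with MS023, beside -0.01 and -0.0011 over all genes tested. PRMT8 had 2 counts and PRMT9 110 counts in the 42 wells together, too few to be tested.

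**Figure D1:**
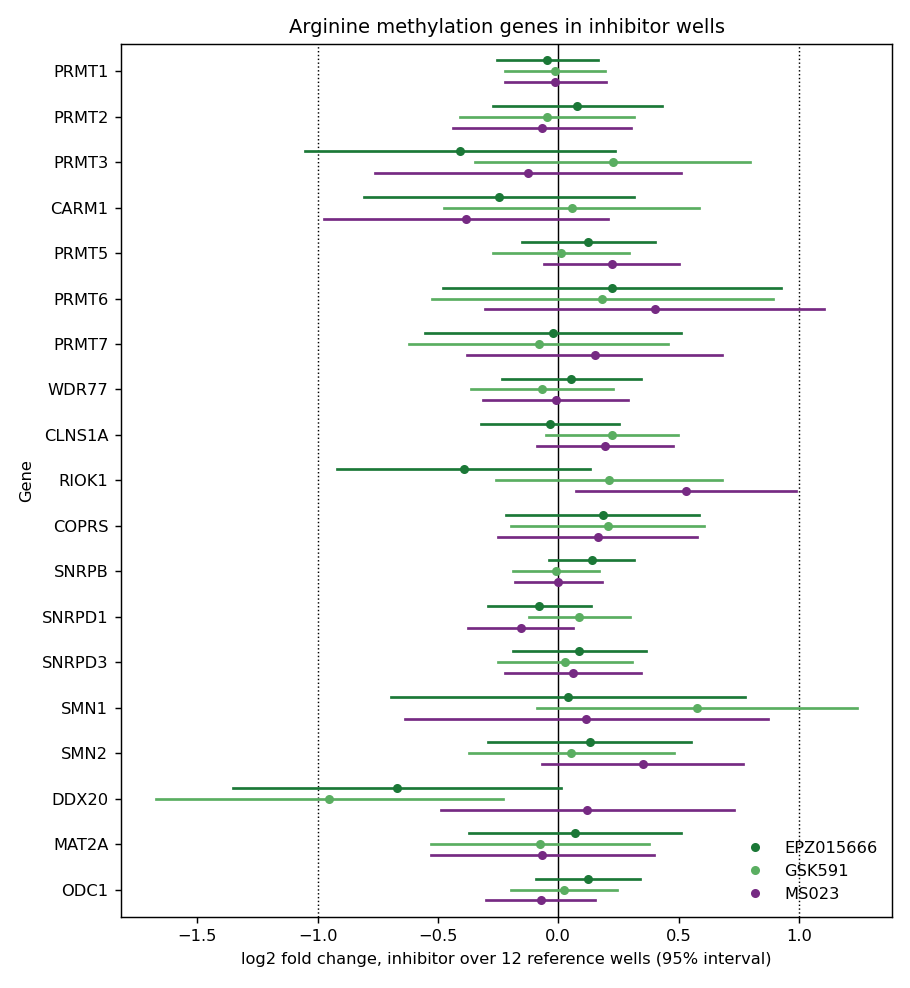
log2 fold changes against the 12 reference wells (x axis, points, with 95% intervals as lines) for enzymes, partners, Sm and SMN complex genes and genes of the methyl donor and polyamine pathways, 1 gene a row, for EPZ015666, GSK591 and MS023. The intervals include 0 except for DDX20 with GSK591 (-0.95, interval -1.67 to -0.23) and RIOK1 with MS023 (0.53, interval 0.07 to 0.99), and neither passed the test over all genes.

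The partners of PRMT5 did not pass the test either. WDR77, the obligate partner, had 85.6 and 74.4 CPM with EPZ015666, 75.8 and 72.1 CPM with GSK591 and 80.8 and 74.35 CPM with MS023, against 65.2 to 94.96 CPM in reference wells. CLNS1A, which brings Sm proteins to PRMT5, reached 225.5 CPM in a GSK591 well and 228 CPM in an MS023 well, both on plate 1 and above the highest reference well (204 CPM), while the plate 2 wells had 198 and 188 CPM. RIOK1, an alternative substrate adaptor, had 35.4 and 29.1 CPM with MS023, 10.35 and 24.4 CPM with EPZ015666 and 20.0 and 31.4 CPM with GSK591, against 8.74 to 33.2 CPM (median 21.5) in reference wells. The RIOK1 log2 fold change was 0.53 for MS023 (SE 0.23, unadjusted p = 0.024, adjusted p = 0.97, edgeR) and -0.09 for the PRMT5 inhibitors (SE 0.19). COPRS, which guides PRMT5 to histones, differed by 0.20 (SE 0.15) with the PRMT5 inhibitors and 0.16 (SE 0.21) with MS023. All 4 partners were tested and 0 passed.

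Genes of the Sm and LSm proteins, which include the best known substrates of PRMT5, lay close to the reference. SNRPB, which encodes the SmB proteins, had 776 and 767 CPM with EPZ015666, 675 and 719.5 CPM with GSK591 and 674 and 726.5 CPM with MS023, against 617 to 763 CPM in reference wells. Both EPZ015666 wells were slightly above the highest reference well, with a log2 fold change of 0.14 for EPZ015666 (95% interval -0.04 to 0.32). SNRPD1, which encodes SmD1, had 455 and 344 CPM with EPZ015666, 498 and 399.8 CPM with GSK591 and 360 and 393 CPM with MS023, against 351 to 486 CPM in reference wells. The plate 1 GSK591 well was above that range, the plate 2 EPZ015666 well was below it and their duplicates were inside. SNRPD3, which encodes SmD3, was inside the reference range in all 6 wells, with a log2 fold change of 0.06 for the PRMT5 inhibitors (-0.15 to 0.27) and 0.06 for MS023 (-0.22 to 0.35). Of 17 genes listed 15 were tested, 0 passed, and all 15 intervals lay within 2-fold for either target. Their median log2 fold change was 0.04 for the PRMT5 inhibitors and -0.08 for MS023.

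The SMN complex, which loads the Sm ring onto small nuclear RNAs, held 1 gene with a low unadjusted p. DDX20, the helicase also named Gemin3, had 5.64 and 12.2 CPM with EPZ015666, 6.99 and 6.97 CPM with GSK591 and 17.0 and 13.1 CPM with MS023, against 7.12 to 21 CPM (median 13.4) in reference wells. Of the 4 PRMT5 inhibitor wells 3 were below every reference well, and both MS023 wells were inside the range. The log2 fold change was -0.81 for the PRMT5 inhibitors (SE 0.26, unadjusted p = 0.0032, adjusted p = 1.0, edgeR) and 0.12 for MS023 (SE 0.30). The difference between the classes was -0.93 (SE 0.38, adjusted p = 0.96, edgeR). All 10 genes of the list were tested and 0 passed. SMN1 and SMN2 are near-identical copies whose reads the counting could split, so their values are uncertain.

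Among RNA-binding proteins that type I enzymes methylate, 24 were listed, 23 were tested and 0 passed. The smallest p with MS023 belonged to EWSR1, an RNA-binding protein of the FET family, with 152 and 85.4 CPM with MS023, 92.2 and 79.3 CPM with EPZ015666 and 109.8 and 109.3 CPM with GSK591, against 60.0 to 95.9 CPM in reference wells. Its log2 fold change with MS023 was 0.45 (SE 0.15, adjusted p = 0.96, edgeR), but the plate 1 MS023 well was above and the plate 2 well inside the reference range. Both GSK591 wells were above it as well. CIRBP, a cold-inducible RNA-binding protein, differed by 0.33 with MS023 (SE 0.12) and 0.19 with the PRMT5 inhibitors (SE 0.09), with adjusted p of 0.97 for MS023 and 1.0 for the PRMT5 inhibitors in edgeR. With MS023, 5 of the 23 had an unadjusted p under 0.05, where 4.89% of all genes tested did. The median log2 fold change of the 23 was 0.11 with MS023. With the PRMT5 inhibitors it was -0.03.

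Of 40 SR and hnRNP splicing factors listed 39 were tested and 0 passed against the reference, with a median log2 fold change of -0.06 for the PRMT5 inhibitors and 0.13 for MS023. U2AF2, the large subunit of the factor that binds the polypyrimidine tract, had 76.2 and 72.0 CPM with EPZ015666, 68.9 and 77.9 CPM with GSK591 and 106 and 113.5 CPM with MS023, against 39.1 to 100.5 CPM (median 78.2) in reference wells. Both MS023 wells were above every reference well and all 4 PRMT5 inhibitor wells were inside the range. Its log2 fold change was -0.08 with the PRMT5 inhibitors (SE 0.12) and 0.49 with MS023 (SE 0.15, adjusted p = 0.96, edgeR). The difference between the classes was -0.57 (SE 0.17, adjusted p = 0.79, edgeR).

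TRA2B, an SR-like activator of exon inclusion, had 142 and 145 CPM with EPZ015666, 175 and 156 CPM with GSK591 and 136 and 121 CPM with MS023, against 90.1 to 142 CPM in reference wells. The GSK591 wells lay above the reference range and the EPZ015666 wells at its top or slightly above, with a log2 fold change of 0.27 (SE 0.09, adjusted p = 1.0, edgeR). HNRNPR, an hnRNP that is also a type I substrate, had 130.4 and 93.4 CPM with MS023, against 63.0 to 109.0 CPM in reference wells. The 4 PRMT5 inhibitor wells held 65.9 to 83.7 CPM of it, all inside the reference range.

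HNRNPH1, which encodes an hnRNP that binds runs of G, had a low unadjusted p with the PRMT5 inhibitors. It had 205 and 207 CPM with EPZ015666, 237.5 and 299.9 CPM with GSK591 and 591 and 666 CPM with MS023, against 184 to 931 CPM in reference wells and 136.5 to 1331 CPM in DMSO wells. The PRMT5 inhibitor wells were in the lower part of both ranges but not below them. The log2 fold change was -1.15 (SE 0.42, unadjusted p = 0.0077, adjusted p = 1.0, edgeR) against the reference, and -1.46 (SE 0.41, adjusted p = 0.043, edgeR) against DMSO. Without the filter on low counts HNRNPH1 was called against the reference at nearly the same fold change (-1.14, adjusted p = 3.0e-22, edgeR). At a given well position the 2 plates differed by at most 1.33-fold in DMSO wells, while DMSO positions differed by up to 8.96-fold. In DMSO wells its between-position SD was 1.09 on the log2 scale, the largest of the 2367 genes of log2 CPM 6 or more, and its within-position SD was 0.14.

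Each position has its own barcode in the reverse transcription primer, and the level of HNRNPH1 moved with the number of G and C in it. The barcodes of the 3 inhibitors and of 5 other positions, chosen after their values were seen to span the range, are shown 5′ to 3′ with G and C in capitals. Positions assume that wells are numbered along rows.
EPZ015666, B4: CCGtCaGaaC
GSK591, C4: CCtaGaCaCG
MS023, E4: CCtCCataaG
EtOH, H11: tGtGaCGtGC
Pinometostat, H5: CGtaaGattC
DMSO, H8: GtCCGCatCa
DMSO, H9: GttGaattGG
DMSO, G1: aaCCtCataG
Of the positions shown, those with 6 such bases held 205 and 207 CPM (EPZ015666), 237.5 and 299.9 CPM (GSK591), 195 and 184 CPM (EtOH) and 136.5 and 158 CPM (DMSO at H8). MS023, with 5, held 591 and 666 CPM. Those with 4 held 931 and 843 CPM (Pinometostat), 830 and 813 CPM (DMSO at H9) and 1314 and 1331 CPM (DMSO at G1). Some positions not shown separated less clearly. Ofloxacin, with 5, held 234 and 201 CPM, and SGC_0946, with 6, held 393 and 427 CPM. DMSO at A12, with 4, held 536 and 412 CPM, and DMSO at B12, with 4, held 474 and 465 CPM.

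Over all 21 positions of the groups compared, the 7 with 6 G or C spanned 136.5 to 427 CPM (median 206), the 4 with 5 spanned 201 to 666 CPM (median 568) and the 10 with 4 spanned 412 to 1331 CPM (median 853) of HNRNPH1. With the number of G and C as a covariate, a choice made after seeing the data, the log2 fold change of HNRNPH1 for the PRMT5 inhibitors was -0.03 (SE 0.25) against the reference and 0.03 against DMSO (adjusted p = 0.99, edgeR). TRA2A, another splicing activator with a low p (-0.85, SE 0.32, adjusted p = 1.0 against the reference, edgeR), was at 0.01 (SE 0.23) with the covariate. In a fit over the 21 positions with both plates summed, HNRNPH1 fell by 0.94 on the log2 scale for each further G or C (SE 0.11, adjusted p = 1.6e-06, edgeR), and 46 of 11835 genes were lower with more G and C while 0 were higher. The number of G and C was chosen after these levels were seen, so the p-value of this slope is not independent evidence. Outside the first plate column the median levels of HNRNPH1 were 689 CPM with 4 such bases, 568 CPM with 5 and 206 CPM with 6. Position, barcode and compound cannot be told apart in these plates.

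**Figure D2:**
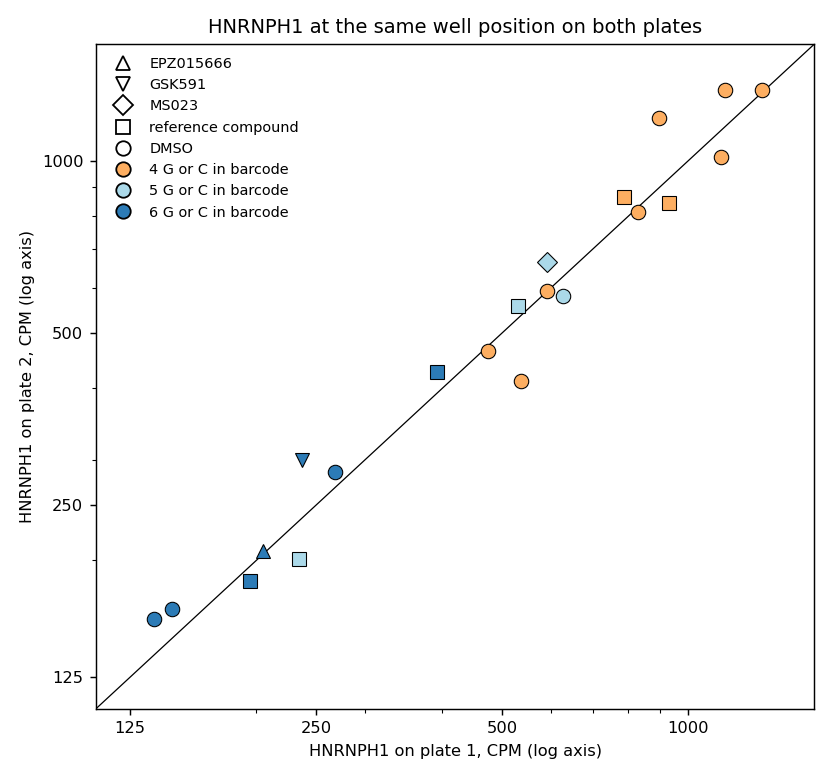
HNRNPH1 level at each of the 21 well positions of the inhibitors, the reference and DMSO, plate 1 (x axis) against plate 2 (y axis), both in CPM on log axes, coloured by the number of G and C bases in the well barcode and shaped by group. The points lie along the line of equality, the positions with 6 such bases at 136.5 to 427 CPM and those with 4 at 412 to 1331 CPM.

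Genes of the methyl donor and its neighbours did not move together. MAT2A, which makes S-adenosylmethionine and whose messenger RNA is sensitive to its supply, had 74.3 and 73.2 CPM with EPZ015666, 55.9 and 79.0 CPM with GSK591 and 66.6 and 68.3 CPM with MS023, against 58.0 to 103 CPM (median 68.2) in reference wells. Of 20 methionine, S-adenosylmethionine and polyamine genes 18 were tested, 0 passed, and 0 had an unadjusted p under 0.05 for either target. Their median log2 fold change was 0.04 for the PRMT5 inhibitors and 0.08 for MS023. MTAP, the methionine salvage enzyme whose loss is known to make cells sensitive to low PRMT5 activity and whose region K562 is known to lack, had 1 count in the 42 wells together.

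Pathways that longer PRMT inhibition is known to touch were read from the same fit. Of 24 homologous recombination and Fanconi genes 18 were tested and 0 passed against the reference. FANCD2, a monoubiquitinated Fanconi protein, had 18.8 and 23.2 CPM with EPZ015666, 18.0 and 33.7 CPM with GSK591 and 46.8 and 63.3 CPM with MS023, against 21 to 62.0 CPM in reference wells. The plate 1 wells of both PRMT5 inhibitors were below that range and the plate 2 well of MS023 was just above it. Its log2 fold change was -0.72 (SE 0.29) for the PRMT5 inhibitors and 0.54 (SE 0.32) for MS023, with adjusted p of 1.0 for the PRMT5 inhibitors and 0.97 for MS023 in edgeR. Its level also differed between DMSO positions, by up to 5.31-fold. Of 18 p53 pathway genes 10 were tested and 0 passed, in a line known to lack functional p53. MDM4, an inhibitor of p53 whose splicing is a known readout of PRMT5, had 6.59 and 14.6 CPM with EPZ015666, 7.98 and 25.6 CPM with GSK591 and 9.92 and 11.05 CPM with MS023, against 3.55 to 18.3 CPM in reference wells. The plate 2 GSK591 well was above that range and the other 5 wells were inside it. CDKN1A, the cell cycle inhibitor p21, had 87 counts in the 42 wells and was not tested.

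Cell cycle genes gave 0 of 23 replication genes and 0 of 23 mitotic genes against the reference. PLK1, a mitotic kinase, had 136 and 123 CPM with MS023, 95.01 and 93.9 CPM with EPZ015666 and 93.8 and 122 CPM with GSK591, against 85.6 to 112 CPM in reference wells. Both MS023 wells were above the range, with a log2 fold change of 0.35 (SE 0.12, adjusted p = 0.97, edgeR).

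Stress, histone and metabolic lists likewise gave 0 calls. An unadjusted p under 0.05 with the PRMT5 inhibitors was found for 4.09% of all genes tested. Of the 19 tested genes of the ATF4 and unfolded protein list, 4 had such a p. Among them PSAT1, a serine synthesis enzyme, differed by 0.62 (SE 0.23), CTH, which makes cysteine, by 0.70 (SE 0.28) and CEBPB, a transcription factor, by -0.63 (SE 0.22), with adjusted p of 1.0 each in edgeR. CTH had 9.41 and 6.10 CPM with EPZ015666, 16.0 and 13.95 CPM with GSK591 and 17.0 and 8.04 CPM with MS023, against 2.37 to 11.9 CPM in reference wells. Both GSK591 wells and the plate 1 MS023 well were above the range. H4C3, a replication-dependent histone H4 gene, differed by 0.33 (SE 0.12) with the PRMT5 inhibitors and 0.45 (SE 0.15) with MS023. Over all 27 lists and both targets the number called against the reference was 0, and the list medians lay between -0.11 (cholesterol synthesis) and 0.18 (PRMT5 partners, MS023), apart from the 2 tested markers of other blood cells.

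**Figure D3:**
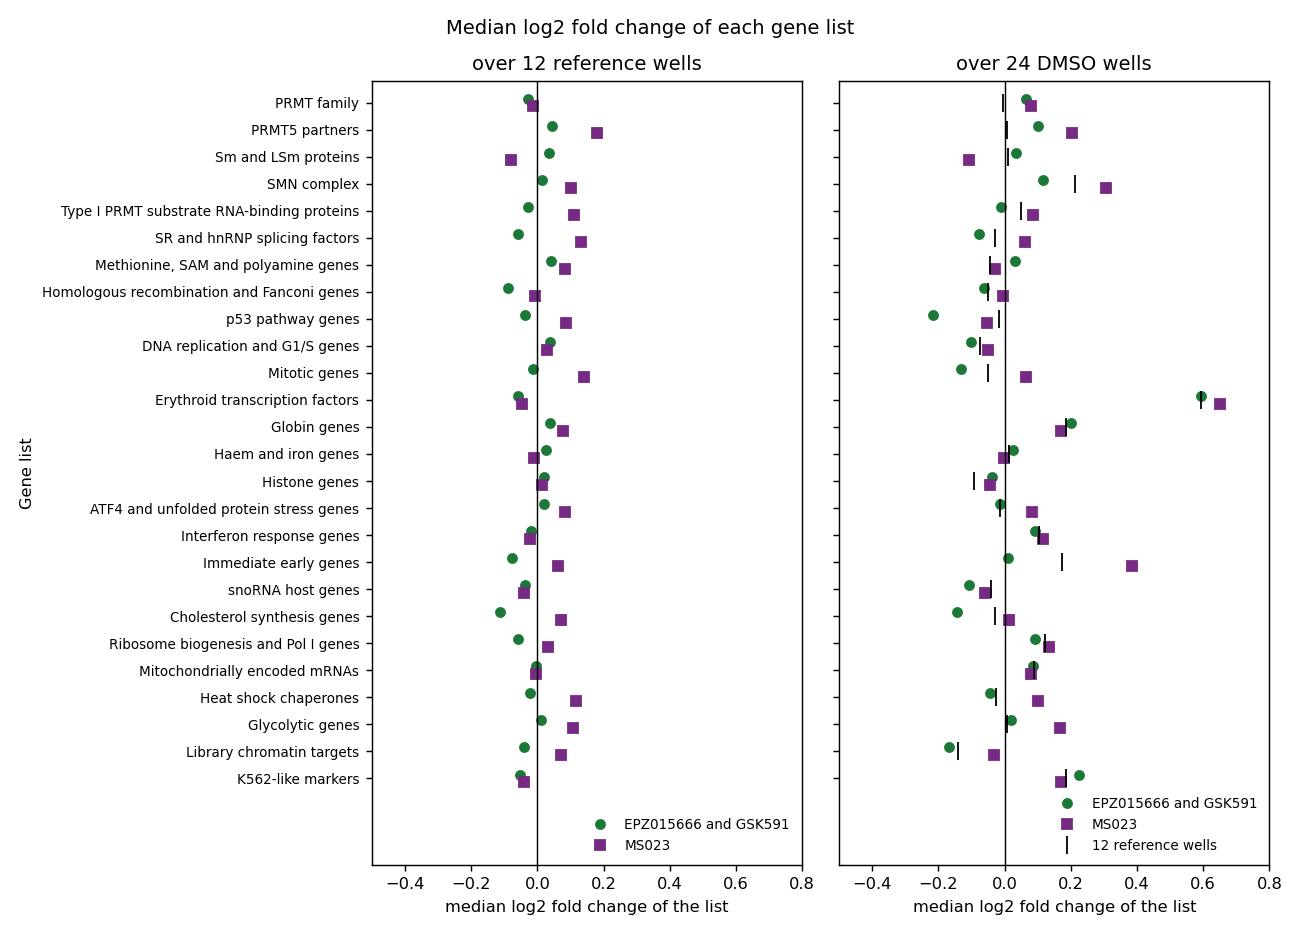
Median log2 fold change (x axis) of each gene list with at least 4 genes tested (rows), over the 12 reference wells (left panel) and over DMSO (right panel), for the PRMT5 inhibitors (circles), MS023 (squares) and, on the right, the reference wells (bars). Against the reference the medians lie between -0.11 and 0.18, while against DMSO the erythroid transcription factors stand at 0.59 for the PRMT5 inhibitors, 0.65 for MS023 and 0.59 for the reference wells.

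The genes with the smallest p against the reference were of low level. With the PRMT5 inhibitors it was AP1G1, a subunit of the AP-1 clathrin adaptor, with 8.47 and 7.32 CPM (EPZ015666) and 5.99 and 6.97 CPM (GSK591), against 6.55 to 18.6 CPM in reference wells. The plate 1 GSK591 well was below the range. Its log2 fold change was -0.97 (SE 0.28, adjusted p = 1.0, edgeR). With GSK591 it was the pseudogene PSME2P1, which can share reads with PSME2, with 20.0 and 27.9 CPM, against 5.94 to 15.3 CPM in reference wells. It differed by 1.25 (SE 0.28, adjusted p = 0.28, edgeR), while EPZ015666, at 8.47 and 7.32 CPM, gave -0.32 (SE 0.38).

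With MS023 the smallest p belonged to CHMP4B, a subunit of the ESCRT-III membrane scission complex, with 4.25 and 4.02 CPM, against 10.7 to 22.9 CPM in reference wells. Both wells were below every reference well, and the log2 fold change was -1.88 (SE 0.42, unadjusted p = 3.4e-05, adjusted p = 0.32, edgeR). JOSD2, a deubiquitinase, came next with 29.75 and 25.1 CPM, against 34.3 to 58.2 CPM in reference wells, and a log2 fold change of -0.82 (SE 0.21, adjusted p = 0.89, edgeR). With EPZ015666 the smallest p was that of ENTREP3, a membrane protein gene, at 6.59 and 12.2 CPM, against 15.3 to 30.6 CPM in reference wells (log2 fold change -1.16, SE 0.32, adjusted p = 1.0, edgeR).

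The pseudogene RPL36P13 was too low to be tested but had 40 counts in the GSK591 well of plate 2. The other inhibitor wells held 1 or 2 counts and no reference or DMSO well more than 4. Since the duplicate GSK591 well on plate 1 held 1 count, the signal belonged to 1 well.

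Against DMSO, by contrast, the inhibitors stood apart, with erythroid transcription factors and MYC higher. The 24 DMSO wells served all of these comparisons, so the calls of the 3 compounds are not independent of one another. For the PRMT5 inhibitors together, 102 genes were higher (1.1%) and 46 lower (0.496%). Singly, 30 were higher (0.323%) and 1 lower (0.0108%) with EPZ015666, 22 higher (0.237%) and 3 lower (0.0323%) with GSK591, and 35 higher (0.377%) and 5 lower (0.0539%) with MS023. The reference wells set against the same DMSO wells gave 312 higher (3.36%) and 176 lower (1.9%), or 611 higher and 10 lower when scaled to ERCC. Of the 24 DMSO wells, 8 lay in the first plate column, where wells were shallow, with a median of 266020 human counts.

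The genes called against DMSO were followed in the other comparisons. The 102 genes higher with the PRMT5 inhibitors had a median log2 fold change of 0.57 against DMSO, 0.06 against the reference, and 0.47 for the reference against DMSO. For the 35 genes higher with MS023 these medians were 0.70, 0.09 and 0.62. The lower genes also differed from the reference in the median. The 46 genes lower with the PRMT5 inhibitors had medians of -0.58 against DMSO, -0.28 against the reference, and -0.35 for the reference against DMSO. For the 3 genes lower with GSK591 these were -1.19, -0.64 and -0.46, and for the 5 lower with MS023 they were -0.87, -0.82 and -0.41. None of these genes was called against the reference. Because they were picked for their difference from DMSO, these medians describe them and test nothing.

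NFE2, a bZIP activator of globin genes, had 264 and 288 CPM with EPZ015666, 264.5 and 294 CPM with GSK591 and 238 and 272 CPM with MS023, against 83.7 to 196 CPM (median 126) in DMSO wells and 234 to 287 CPM in reference wells. KLF1, the erythroid Krüppel-like factor, had 243 and 252.5 CPM with EPZ015666, 216 and 299.9 CPM with GSK591 and 193 and 267 CPM with MS023, against 87.9 to 187 CPM in DMSO wells and 226 to 327 CPM in reference wells. For both genes all 6 inhibitor wells were above every DMSO well. NFE2 rose by 1.08 on the log2 scale with the PRMT5 inhibitors (SE 0.09, adjusted p = 2.7e-14, edgeR) and by 0.95 with MS023 (SE 0.12, adjusted p = 9.5e-07, edgeR), where the reference wells differed from DMSO by 0.97. KLF1 rose by 0.88 (SE 0.09) and by 0.75 (SE 0.12), where the reference wells differed by 0.98.

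HEMGN, a nuclear regulator of erythroid cells, was also above every DMSO well in 6 of 6 inhibitor wells, and LMO2 and GATA1, which belong to 1 erythroid DNA-binding complex, in 5 of 6. TAL1, of the same complex, did not rise and was not called. Its log2 fold change against DMSO was -0.50 to -0.09 over 14 alternative fits for the PRMT5 inhibitors. For MS023 it was -0.28 to -0.09 over 12. LMO2 had 53.6 and 32.9 CPM with EPZ015666, 47.9 and 48.8 CPM with GSK591 and 24.1 and 56.3 CPM with MS023, against 6.90 to 29.3 CPM in DMSO wells. The MS023 well of plate 1, which had the lowest human to ERCC ratio of the 6, was the exception for LMO2. HEMGN rose by 1.01 with the PRMT5 inhibitors (SE 0.15, adjusted p = 2.9e-06, edgeR) and by 0.86 with MS023 (SE 0.20, adjusted p = 0.028, edgeR). GATA1 had 371 and 439 CPM with EPZ015666, 342 and 423 CPM with GSK591 and 388 and 432 CPM with MS023, against 146.5 to 368 CPM in DMSO wells, and the GSK591 well of plate 1 was its exception. Of 12 erythroid transcription factors tested, 6 rose with the PRMT5 inhibitors (NFE2, KLF1, LMO2, HEMGN, GATA1 and LDB1) and 5 with MS023 (all but LDB1), with medians of 0.59 and 0.65. Over all genes tested, 1.1% rose with the PRMT5 inhibitors, 0.377% with MS023 and 3.36% for the reference wells. The reference wells gave 9 of 12 and a median of 0.59 against DMSO, and against the reference the inhibitors gave 0 of 12 with medians of -0.06 and -0.05. The list was chosen with earlier results of these wells known and is not independent evidence.

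**Figure D4:**
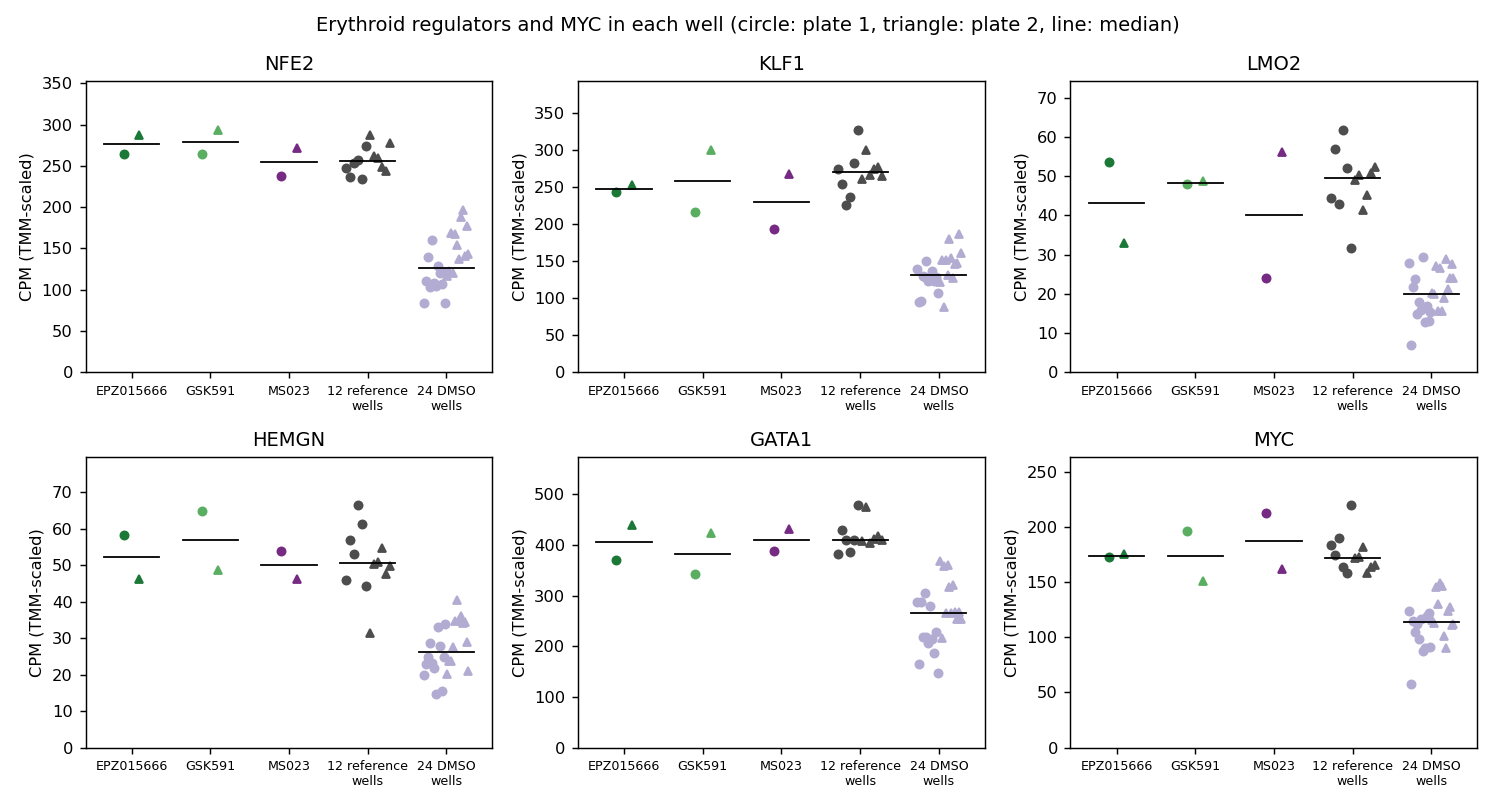
Levels (y axis, CPM) of 6 genes in each well, from left to right EPZ015666, GSK591, MS023, the 12 reference wells and the 24 DMSO wells, with circles for plate 1, triangles for plate 2 and a line at the median. For NFE2, KLF1, HEMGN and MYC all 6 inhibitor wells lie above every DMSO well, at levels close to those of the reference wells.

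MYC, the growth regulator, had 172 and 176 CPM with EPZ015666, 197 and 151 CPM with GSK591 and 212.5 and 162 CPM with MS023, against 57.5 to 149 CPM (median 114) in DMSO wells and 158 to 219.5 CPM in reference wells. It rose by 0.63 with the PRMT5 inhibitors (SE 0.10, adjusted p = 2.7e-05, edgeR) and by 0.71 with MS023 (SE 0.14, adjusted p = 0.0019, edgeR), and the reference wells differed from DMSO by 0.63. Among 16 immediate early genes tested, 5 rose and 1 fell with the PRMT5 inhibitors, where 1.1% of all genes tested rose and 0.496% fell. The reference wells gave 4 higher and 1 lower of the 16 against DMSO. HES1, a Notch target, rose by 0.77, FOSL1, an AP-1 subunit, by 0.86, ZFP36L2, an RNA decay factor, by 0.53 and ID1, an inhibitor of bHLH factors, by 0.45, while its relative ID3 fell by 1.10. With MS023 MYC and ZFP36L2 (0.74) rose.

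The globin genes did not pass for either target, and the reference wells gave 3 of 9 higher against DMSO. These counts are of unlike precision. Over all genes tested against DMSO, the median SE was 0.14 for the 12 reference wells, 0.19 for the PRMT5 inhibitors and 0.27 for MS023. Of all genes tested, 3.36% were higher for the reference wells. HBG2, a fetal globin that shares reads with its near-identical copy HBG1, had 20480 and 18870 CPM with EPZ015666, 21080 and 19010 CPM with GSK591 and 18680 and 18850 CPM with MS023, against 13080 to 19140 CPM in DMSO wells and 18180 to 20200 CPM in reference wells. Of 9 globin genes tested 0 were called against DMSO for either target, with median log2 fold changes of 0.20 for the PRMT5 inhibitors and 0.17 for MS023. HBG1 and HBG2 were each called for the PRMT5 inhibitors in 3 of 14 alternative fits.

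Some splicing factors were called against DMSO. Over all genes tested, 1.1% rose and 0.496% fell with the PRMT5 inhibitors, and 0.377% rose and 0.0539% fell with MS023. For the reference wells 3.36% rose and 1.9% fell. With the PRMT5 inhibitors SRSF7, an SR protein, rose by 0.29 and HNRNPDL, an hnRNP, by 0.33, and HNRNPH1 fell by 1.46. The HNRNPH1 call was lost in 9 of 14 alternative fits, each of the 4 that left out 1 inhibitor well among them. It was also lost in 1 more, with the barcode covariate, where the log2 fold change was 0.03 (SE 0.25, adjusted p = 0.99, edgeR). The reference wells against DMSO gave 2 higher and 1 lower of the 39. With MS023 SRSF7 rose by 0.35, HNRNPDL by 0.50 and U2AF2 by 0.56. PES1, a ribosome assembly factor, rose by 0.73 with MS023, and H2BC11, a histone H2B gene, fell by 0.72, CHMP4B fell by 1.68 and JOSD2 fell by 0.87 on the log2 scale. CHMP4B lost the call in 9 of 12 alternative fits, with log2 fold changes of -1.78 to -1.58. Lower with the PRMT5 inhibitors were H2BC11 (-0.42), the mitotic kinase AURKB (-0.39), the chaperone HSPA1A (-0.43) and the sterol synthesis enzymes IDI1 (-0.42) and MVK (-0.51).

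The number of calls against DMSO rested on few wells and on the scaling. The duplicates share a position and barcode, and with both plates summed per position the PRMT5 inhibitors gave 31 higher and 3 lower, and MS023 11 higher and 1 lower. Without 1 inhibitor well the PRMT5 inhibitors gave 29 calls (EPZ015666 of plate 1 left out), 78 (EPZ015666 of plate 2), 37 (GSK591 of plate 1) or 70 (GSK591 of plate 2), against 148 with all wells. Scaled to ERCC instead of to human counts the PRMT5 inhibitors gave 75 higher and 1 lower, and MS023 0 calls of either direction (490 genes with an unadjusted p under 0.05), with NFE2 at an adjusted p of 0.22 in edgeR. The median log2 fold change of all genes under this scaling was 0.17 for the PRMT5 inhibitors and -0.06 for MS023 against DMSO, beside -0.01 for each under TMM, and -0.23 for MS023 against the reference. NFE2, KLF1, LMO2, HEMGN, GATA1 and MYC stayed called for the PRMT5 inhibitors in all 14 alternative fits, with log2 fold changes of 0.98 to 1.28 for NFE2, 0.76 to 1.08 for KLF1, 0.98 to 1.44 for LMO2, 0.89 to 1.18 for HEMGN, 0.59 to 0.83 for GATA1 and 0.51 to 0.83 for MYC. The compounds singly were less stable. Over 12 alternative fits each, MS023 lost the call in 4 for GATA1, 4 for HEMGN, 2 for KLF1, 2 for LMO2, 2 for MYC and 1 for NFE2, with no change of direction. EPZ015666 lost it in 4 for MYC, 3 for GATA1 and 1 each for KLF1, LMO2 and HEMGN, and GSK591 in 6 for GATA1, 4 for MYC and 1 each for LMO2 and HEMGN, while NFE2 stayed called for both.

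Set against each other, the 3 compounds did not differ at the threshold in any of the 3 pairs. Between the PRMT5 inhibitors, EPZ015666 minus GSK591 gave 0 calls (0%) and 221 genes with an unadjusted p under 0.05. EPZ015666 minus MS023 gave 0 (0%) and 391, and GSK591 minus MS023 gave 0 (0%) and 344. The difference between the target classes gave 0 (0%) and 447. With p-values adjusted over all genes of the 3 pairs together, the smallest was 1.0 in edgeR, and DESeq2 called 0 in each. The median half-width of the 95% interval was 0.69 for EPZ015666 minus GSK591, 0.70 for either pair with MS023 and 0.61 for the classes. For EPZ015666 minus GSK591 5277 genes (56.9%) had an interval within 2-fold, and among the 2367 genes of log2 CPM 6 or more 2352 did.

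PES1 showed the lowest p of any pair. It had 55.5 and 65.9 CPM with EPZ015666, 82.8 and 99.96 CPM with GSK591 and 94.9 and 124.6 CPM with MS023, against 63.9 to 102.5 CPM in reference wells. The MS023 wells were above both EPZ015666 wells, and EPZ015666 minus MS023 was -0.87 (SE 0.20, 95% interval -1.27 to -0.47, adjusted p = 0.46, edgeR). With all wells of both plates in the fit it was the only gene called for that pair. EPZ015666 minus GSK591 for PES1 was -0.59 (SE 0.20, adjusted p = 1.0, edgeR). The PRMT5 inhibitors minus MS023 gave 0.13 for NFE2 (95% interval -0.16 to 0.41) and 0.13 for KLF1 (-0.15 to 0.41), so that neither difference exceeded the spread between wells.

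Duplicates of a compound were about as alike as wells of different compounds. Deviations from the reference mean of the same plate, over 2367 genes, correlated across plates at 0.10 for EPZ015666, -0.14 for GSK591 and 0.14 for MS023, and at -0.17 to 0.14 between different compounds. These are correlations across genes, which are not independent replicates, and wells of 1 plate share its reference mean. The chi-square per degree of freedom between duplicate counts, which is larger where they disagree more, was 2.71 for GSK591, 2.12 for MS023 and 1.76 for EPZ015666. It was 1.25 to 1.59 for reference positions and 1.10 to 1.81 for DMSO positions. The SD of the deviations was 0.16 to 0.24 on the log2 scale for inhibitor wells, with the highest in the MS023 well of plate 1, and 0.15 to 0.22 for reference wells.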

How the data were processed

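Each of the 2 plates of 96 wells was 1 pooled library, and wells were told apart by their barcodes. The build was GRCh37, also called hg19, and the tools named were cutadapt 2.1, R 4.0.2, FastQC 0.11.6 and bcl2fastq 2.17.1.14, per the submitters' processing notes. Which aligner, counter or annotation served is not given in the sources used here. Deposited tables hold the authors' unnormalised counts per gene and well, here whole-number expected counts of reads, not corrected for copies of a molecule (2.28 to 2.72 reads per unique molecular identifier in the inhibitor wells), so that read counts overstate the number of independent molecules. They list 57905 human gene lines (51996 with a symbol), 92 ERCC lines and 6 summary lines per file, and the last were left out.

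In R 4.3.3, the 42 wells of the inhibitors, the reference and DMSO were fitted together with edgeR 4.0.16 (limma 3.58.1), with filterByExpr (9281 genes left, 8748 with a symbol), TMM scaling, plate as an additive term (the replicate block) and a quasi-likelihood test with Benjamini-Hochberg adjustment at 0.05, for 13 comparisons. The common biological coefficient of variation was 0.0923. CPM are counts scaled to the TMM-adjusted library size. DESeq2 1.42.0 and other scalings, filters and well sets were alternatives. The fit was tested on simulated data. The labels number the plates, and wells of 1 plate share its term in the fit. A well number held the same compound on both plates, which is where the duplicates come from.

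Members, the 27 gene lists (7 listed genes had no line of that symbol) and 21 looked-up genes (19 tested) were chosen with earlier results of these data known. Named genes were those looked up, the 2 to 4 list members of smallest p, and, against the reference, called genes whose mean log2 CPM reached 4 or, where fewer than 5 were called, the 10 of smallest p at any level. The comparison of the reference with DMSO was added after seeing the data. No well was identical to its duplicate.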

Additional observations from a re-analysis of the deposited data

Results flagged for a closer look

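Of 31 values screened for a well apart from its group, 3 were found among the 4 PRMT5 inhibitor wells, where chance flags about 1 in 20 groups. PRMT6 was highest in the EPZ015666 well of plate 2, with a gap of 0.838 of the range of the 4 wells. PRMT7 was highest in the EPZ015666 well of plate 1, with a gap of 0.915 of the range. GFI1B, an erythroid repressor, was highest in the GSK591 well of plate 2, with a gap of 0.955 of the range. PRMT6 and PRMT7 spanned under 2 CPM over the 4 wells, and GFI1B had 59.3 and 58.6 CPM with EPZ015666 and 58.9 and 76.7 CPM with GSK591.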

How the results depend on the processing

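Counts of called genes moved as follows. Without a filter on low counts (26829 genes), the PRMT5 inhibitors gave 9, EPZ015666 9 and GSK591 5 against the reference, the pairs EPZ015666 minus GSK591 1, EPZ015666 minus MS023 6 and GSK591 minus MS023 3, the classes 8, and EPZ015666 against DMSO 52. That fit moderated the HNRNPH1 dispersion to 1.01, against 19.5 in the filtered fit. Its 9 genes were the same for the PRMT5 inhibitors and EPZ015666: HNRNPH1, TRA2A, WTAP, C1orf56, CTNNB1, GIGYF1, LRRC75A, CDC42SE1 and ENSG00000267458. Each of them also differed between DMSO positions, by 2.90-fold (CTNNB1) to 14.3-fold (C1orf56) between the highest and lowest position. Summed over plates, GSK591 gave 1 against the reference, and against DMSO the PRMT5 inhibitors gave 34, EPZ015666 13, GSK591 10, MS023 12 and the reference wells 292. With all wells fitted, GSK591 gave 1 against the reference, EPZ015666 minus MS023 1, and against DMSO the PRMT5 inhibitors 251, EPZ015666 67, GSK591 39 and MS023 65. With ERCC scaling the counts against DMSO were 76 for the PRMT5 inhibitors, 7 for GSK591 and 0 for MS023. With library size scaling the PRMT5 inhibitors gave 57 higher and 50 lower against DMSO. Without the plate block they gave 92, EPZ015666 20 and MS023 26. With DMSO wells outside plate column 1, EPZ015666 gave 76, GSK591 61 and MS023 130. DESeq2 gave 53 for EPZ015666 and 62 for MS023. With the barcode covariate the PRMT5 inhibitors gave 75. Leaving out 1 inhibitor well gave 29 to 78 calls against DMSO for the PRMT5 inhibitors, 4 to 11 for EPZ015666, 4 to 9 for GSK591 and 6 to 7 for MS023, and 0 to 1 for GSK591 against the reference and for each pair with GSK591. HNRNPH1 lost its call against DMSO with the barcode covariate and changed sign (0.032, SE 0.25). GAPDH of the reference wells changed sign with DMSO outside column 1 (-0.10). The cause of each of these moves was not tested.

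Of the named genes, 67 values against DMSO lost their call with no change of sign and 18 were newly called. The 2 above changed sign, and 1923 were on the same side of the threshold. Against the reference 7 were newly called and 2333 were not. Depth limits what the scarcer genes can show.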
